A study of Mus musculus with 20 samples.

Results

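The peroxiredoxin and thioredoxin system was followed through 10 genes: the 6 peroxiredoxins *Prdx1* to *Prdx6*, the thioredoxins *Txn1* and *Txn2*, and the thioredoxin reductases *Txnrd1* and *Txnrd2*. They were chosen by name among the 54532 genes of the count table, and all 10 were among the 15984 genes that passed the filter on low counts and were tested. RNA came from the condylar head of the mouse temporomandibular joint (TMJ, the jaw joint), taken with bone beneath the cartilage. All mice carried *Acan*-Cre, a tamoxifen-inducible Cre recombinase driven by the promoter of aggrecan, together with *Loxl2* fl/fl, alleles of the collagen cross-linking enzyme lysyl oxidase-like 2 flanked by loxP sites. From 6 months of age, the 8 control mice (4 male, 4 female) received vehicle, and the 12 mice labelled knockout (6 male, 6 female) received tamoxifen at 75 mg per kg. Injections were given on 5 consecutive days and then monthly until the mice were killed 4 months later. Tamoxifen and the deletion cannot be told apart in this design. The Cre acts in aggrecan-expressing cells, and the tissue sampled also held other cell types. Each library is labelled as a separate replicate.

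Peroxiredoxins are abundant peroxidases that reduce hydrogen peroxide with a reactive cysteine. Most are returned to the reduced state by thioredoxin, which is in turn reduced by a thioredoxin reductase, a selenoprotein that draws electrons from NADPH. Each compartment has its own set. The cytosol uses *Prdx1*, *Prdx2*, *Txn1* and *Txnrd1*, with *Prdx6* relying on glutathione instead, and mitochondria use *Prdx3*, *Txn2* and *Txnrd2*. *Prdx5* is found in the cytosol, mitochondria and peroxisomes, and *Prdx4* works in the endoplasmic reticulum (ER), where it uses the peroxide made during disulfide formation. Chondrocytes and bone cells fold large amounts of collagen in the ER, while muscle fibres are rich in mitochondria.

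*Loxl2* RNA did not go down with the label. It was at 64.5 ± 30.9 CPM (counts relative to the scaled library total, SD, n = 8) in control and 101 ± 26.9 CPM (n = 12) in the libraries labelled knockout, a log2 fold change of 0.64 (SE 0.28, adjusted p = 0.101, edgeR). The paper reported reduced LOXL2 protein in the knockout mice by immunohistochemistry, a measure unlike these RNA counts. The RNA values count the whole gene in mixed tissue, and which exons were deleted is not given in the sources used here. Every direction below is therefore between libraries labelled knockout and control. Library totals of 11153820 to 27045668 counts showed no detectable difference between groups (permutation p = 0.503), whereas genes of the mitochondrial genome took 17.8% ± 2.78 of counts in control and 13.6% ± 3.03 in the libraries labelled knockout (exact permutation p = 0.0053). Fast and slow muscle fibre markers made up 3.45% to 11.02% of the counts of a library, and chondrocyte markers at most 0.616%. Control replicate 8 stood apart. Its 12 chondrocyte markers summed to 111 CPM against 1551 to 5212 CPM in the other 19 libraries, with *Col2a1*, the main cartilage collagen, at 1.68 CPM against 66.3 to 2267 CPM. Not every marker lay as far apart: *Acan* was at 2.22 CPM against at least 2.35 CPM, and *Prg4* at 59.6 CPM against at least 59.0 CPM. The muscle markers of control replicate 8 were the highest, at 153676 CPM against at most 107309 CPM. For called members and for genes whose call was lost without this library, the value without it is given as well.

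Over all genes, 3673 of 15984 (23%) passed an adjusted p of 0.05 by the edgeR quasi-likelihood test, with 1918 higher (12%) and 1755 lower (11%) in the libraries labelled knockout. Scaled by library totals alone, the split was 2188 higher and 849 lower, and the median log2 fold change of all genes moved from -0.018 to 0.12. Among the 10 members, 3 passed. *Prdx4* was higher, and *Prdx3* and *Txnrd2* were lower. The groups overlapped in CPM for all 10 members, whereas they did not overlap for 48 (0.3%) of the genes tested. Of the 10 log2 fold changes 8 were negative, with a median of -0.14. With library totals alone, 5 were negative and 5 positive, and the calls were 2 higher (*Prdx4* and *Txn1*) and 1 lower (*Prdx3*). By compartment, 1 of 1 passed in the ER, 2 of 3 in mitochondria, 0 of 5 in the cytosol and 0 of 1 for *Prdx5*, and a difference between compartments was not tested. The count of 3 in 10 is close to the 23% of all genes and is read as no more than that.

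**Figure D1:**
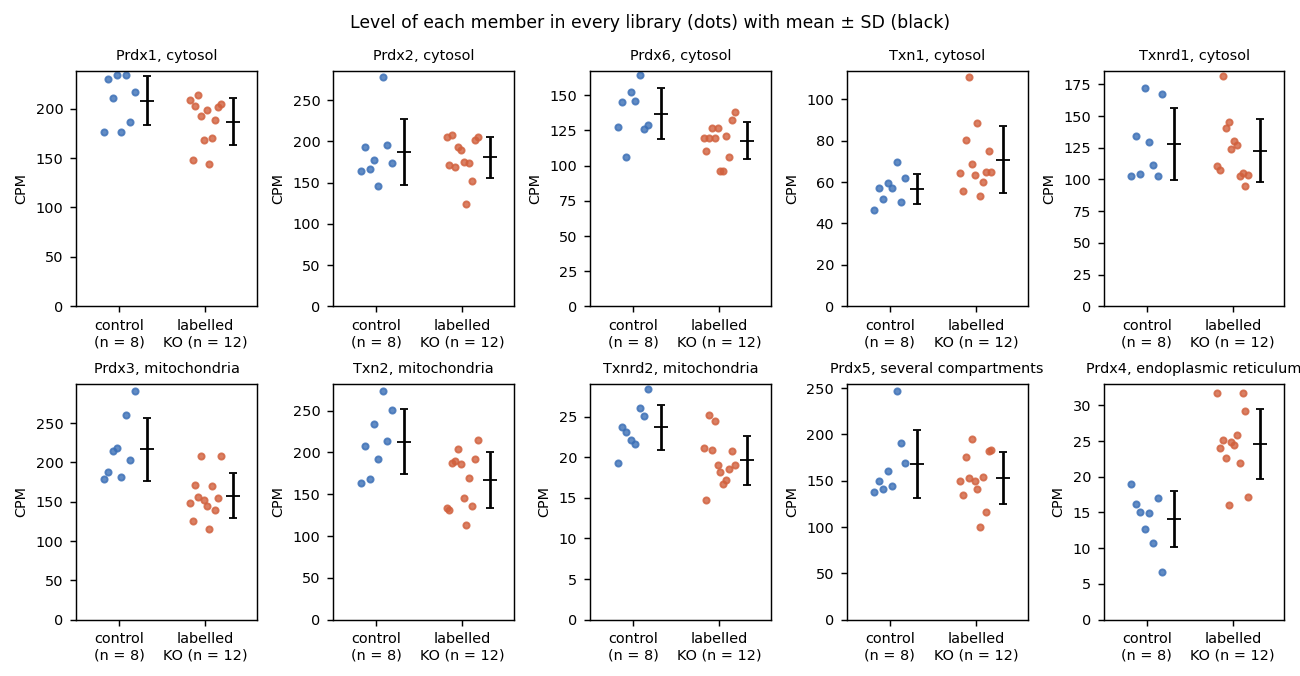
Level of each of the 10 members in CPM (vertical axes, each starting at 0) in every control library (blue) and every library labelled knockout (KO, orange), with the mean ± SD of each group in black. Of the 12 libraries labelled knockout, 10 lie above every control library for *Prdx4* and 10 lie below every control library for *Prdx3*, while the groups overlap widely for *Prdx2*, *Txnrd1* and *Prdx5*.

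*Prdx4* (ENSMUSG00000025289, GRCm38 chrX:155323918-155340754, minus strand), the peroxiredoxin of the ER, had the largest change of the 10. Control libraries ran from 6.66 to 19 CPM with a median of 15 CPM, and libraries labelled knockout from 16 to 31.7 CPM with a median of 24.7 CPM. The groups overlapped only at their edges: 10 of the 12 libraries labelled knockout were above the highest control library, and all 12 were above the control median. Means were 14.0 ± 3.91 CPM (SD, n = 8) and 24.6 ± 4.91 CPM (n = 12), a log2 fold change of 0.80 (SE 0.16, 95% confidence interval 0.47 to 1.14), or 1.74-fold (edgeR adjusted p = 0.00255). The lowest value, 6.66 CPM, belonged to control replicate 8, the library with the lowest sum of chondrocyte markers. Without it, the log2 fold change was 0.71 (adjusted p = 0.00302). Leaving out each library in turn gave 0.71 to 0.88, and *Prdx4* passed in 20 of 20 such fits.

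Of the mitochondrial members, *Prdx3* and *Txnrd2* were lower and *Txn2* did not pass. With the muscle markers as covariate 0 of the 3 passed (edgeR adjusted p = 0.113, 0.372 and 0.466). That fit called 882 of all 15984 genes, against 3673 without the covariate, so few calls would be looked for among 3 genes. *Prdx3* (ENSMUSG00000024997, chr19:60864051-60874556, minus strand), which removes most of the hydrogen peroxide made in the mitochondrial matrix, ran from 178 to 291 CPM in control with a median of 209 CPM. In the libraries labelled knockout it ran from 115 to 208 CPM with a median of 153 CPM. All 12 libraries labelled knockout were below the control median and 10 were below the lowest control library, with replicates 5 and 12 the exceptions at 208 CPM each. These were also the libraries labelled knockout with the most muscle markers (73968 and 78290 CPM) and the least *Prdx4* (16 and 17.2 CPM). Means were 217 ± 40.0 CPM (n = 8) and 158 ± 28.6 CPM (n = 12), a log2 fold change of -0.46 (SE 0.12, interval -0.70 to -0.22, edgeR adjusted p = 0.00897). Control replicate 8 again held the extreme, at 291 CPM, and without it the log2 fold change was -0.37 (adjusted p = 0.0279). *Prdx3* passed in 20 of 20 fits that left out 1 library.

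*Txnrd2* (ENSMUSG00000075704, chr16:18426384-18479073, plus strand), the mitochondrial thioredoxin reductase, lay at the threshold. It ran from 19.3 to 28.3 CPM in control (median 23.4) and from 14.7 to 25.1 CPM in the libraries labelled knockout (median 19.1). The groups overlapped, with 7 of 12 libraries labelled knockout below the lowest control library. The log2 fold change was -0.27 (SE 0.10, interval -0.47 to -0.07, edgeR adjusted p = 0.0487), and without control replicate 8 it was -0.21 (adjusted p = 0.138). The call held in 4 of 20 fits that left out 1 library. *Txn2* (ENSMUSG00000005354, chr15:77915047-77929006, minus strand), the mitochondrial thioredoxin, lay just on the other side. Its control libraries ran from 163 to 274 CPM (median 210.4) and those labelled knockout from 114 to 215 CPM (median 177), with 11 of 12 below the control median. The log2 fold change of -0.35 (SE 0.13, interval -0.61 to -0.09) had an adjusted p of 0.0507 in edgeR and 0.0416 in DESeq2, which called 4 of the 10 members and 22.5% of 18767 genes, and leaving out 1 library moved it between -0.28 and -0.40 (-0.30 without control replicate 8, adjusted p = 0.120). All 3 mitochondrial members thus had intervals below 0, which are not adjusted for the number of genes. Of all genes tested, 37% had an unadjusted p under 0.05 in either direction (edgeR). With library totals alone, *Prdx3* passed at -0.30 (adjusted p = 0.00893), while *Txn2* at -0.20 (0.115) and *Txnrd2* at -0.12 (0.336) did not. The median log2 fold change of the 3 was -0.35 against -0.018 over all genes.

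None of the 5 cytosolic members passed, and they did not share a direction. *Txn1* (ENSMUSG00000028367, chr4:57943373-57956411, minus strand), the cytosolic thioredoxin, had a positive log2 fold change of 0.32 (SE 0.12, interval 0.07 to 0.57, edgeR adjusted p = 0.0570). Control libraries ran from 46.5 to 69.5 CPM (median 57.1) and those labelled knockout from 53.5 to 111 CPM (median 64.8). The groups overlapped for most libraries, and 4 of the 12 labelled knockout exceeded the highest control library. *Prdx6* (ENSMUSG00000026701, chr1:161240112-161251219, minus strand), which also acts on oxidised phospholipids, ran from 106 to 164 CPM in control (median 137) and from 96.2 to 138 CPM in the libraries labelled knockout (median 120). Its log2 fold change was -0.22 (SE 0.09, interval -0.40 to -0.04, adjusted p = 0.0731), and 11 of 12 libraries labelled knockout were below the control median.

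*Prdx1* (ENSMUSG00000028691, chr4:116685544-116700822, plus strand) and *Prdx2* (ENSMUSG00000005161, chr8:84969587-84974834, plus strand) are close relatives that share the cytosolic thioredoxin. *Prdx1* ran from 176 to 234 CPM in control (208 ± 24.9, median 214) and from 144 to 214 CPM in the libraries labelled knockout (187 ± 23.6, median 196), with wide overlap (log2 fold change -0.16, SE 0.09, interval -0.34 to 0.03, adjusted p = 0.221). All 12 libraries labelled knockout were below its control median, and 4 were below the lowest control library. *Prdx2* ran from 146 to 278 CPM in control (median 176) and from 124 to 208 CPM in the libraries labelled knockout (median 182), with 6 of 12 on either side of the control median (log2 fold change -0.049, interval -0.28 to 0.18, adjusted p = 0.788). Control replicate 6 held 278 CPM of *Prdx2*, and without that library the sign turned, at 0.063. *Txnrd1* (ENSMUSG00000020250, chr10:82833951-82897712, plus strand), the cytosolic reductase, ran from 102 to 172 CPM (median 121) and from 94.98 to 181 CPM (median 117) in the same order (log2 fold change -0.059, interval -0.33 to 0.21, adjusted p = 0.777), and its sign also turned without control replicate 4 (0.024) or 8 (0.017). *Prdx5* (ENSMUSG00000024953, chr19:6906697-6910106, minus strand), found in several compartments, ran from 138 to 247 CPM (median 155) and from 100.4 to 195 CPM (median 152), with only 1 control library above all those labelled knockout (log2 fold change -0.13, interval -0.40 to 0.13, adjusted p = 0.470). The intervals of these genes still allow changes of about the size seen for *Txnrd2*.

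Some members share exon bases with a neighbour on the other strand, and whether the counting used strand is not stated. *Prdx2* overlaps *Junb* over 173 of its 3050 exon bases and *Rnaseh2a* over 177. *Junb*, an AP-1 transcription factor, was itself higher (log2 fold change 0.80, adjusted p = 0.0086). *Prdx5* overlaps *Trmt112* over 409 of 2139 bases, and *Trmt112* did not pass (adjusted p = 0.915). Counts of the close relatives *Prdx6b* and *Txn-ps1* were at most 2 and 4 in any library, and those of *Prdx6-ps2* and *Prdx2-rs3* were 0 in all libraries.

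Divided by exon length (CPM per kb of exon, the only scale on which levels of different genes are compared here), *Prdx3* was the most abundant member in 8 of 8 control libraries and in 11 of 12 labelled knockout, the exception being replicate 4, where *Txn1* was level with it. It stood at 147 ± 27.1 CPM per kb in control and 107 ± 19.3 CPM per kb in the libraries labelled knockout, above *Prdx5*, which came next at 78.4 ± 17.1 and 71.5 ± 13.1 CPM per kb. The 2 ranges did not overlap in control. *Prdx1* (68.4 ± 8.20), *Prdx2* (61.3 ± 13.2), *Txn1* (54.0 ± 6.88) and *Txn2* (50.6 ± 9.21 CPM per kb in control) followed, each overlapping its neighbour. *Prdx6* (28.5 ± 3.81) lay clearly below *Txn2*, and *Txnrd1* (18.1 ± 4.03) overlapped *Prdx6*. The least abundant were *Prdx4* at 6.67 ± 1.86 and *Txnrd2* at 5.37 ± 0.635 CPM per kb, whose ranges overlapped in control. In the libraries labelled knockout, *Prdx4* at 11.7 ± 2.33 CPM per kb was above *Txnrd2* in 12 of 12 libraries, compared with 6 of 8 in control, and *Txn1* moved from the fifth to the third place at 67.3 ± 15.3 CPM per kb.

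**Figure D2:**
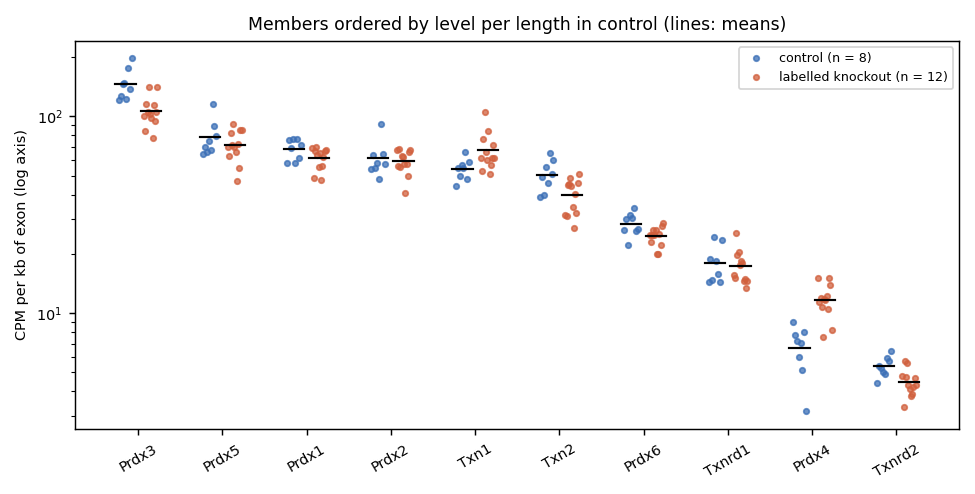
Level of each member per length (vertical log axis, CPM per kb of exon) in every library, ordered by the control mean, with control in blue, libraries labelled knockout in orange and group means as black lines. *Prdx3* is highest in 8 of 8 control libraries and 11 of 12 labelled knockout, and by their means *Prdx4* and *Txnrd2* lie lowest.

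As a share of the summed level per length of the 10 genes, the 3 mitochondrial members made up 39.0% ± 2.70 (SD, n = 8) in control and 32.4% ± 2.60 (n = 12) in the libraries labelled knockout. The 5 cytosolic members went from 44.6% ± 2.35 to 49.7% ± 2.96 and *Prdx4* from 1.34% ± 0.496 to 2.58% ± 0.712, while *Prdx5* was at 15.1% ± 1.68 and 15.3% ± 1.30. Of the 5 cytosolic members, 4 had a negative log2 fold change and none was called. The share of *Txn1* went from 10.5% to 14.5%, and that of the mitochondrial *Prdx3* from 28.3% to 22.9%. These shares follow from the levels above, move against each other as parts of a whole and were not tested. The ratio of *Txn1* to *Txn2* per length, between the thioredoxins of cytosol and mitochondria, had a median of 1.06 (0.943 to 1.24) in control and 1.70 (1.21 to 2.43) in the libraries labelled knockout, with 11 of 12 above the highest control library. For *Prdx4* to *Prdx3* the medians were 0.0536 (0.0161 to 0.0749) and 0.117 (0.0538 to 0.159), with 10 of 12 above the control range. For the reductases, *Txnrd1* to *Txnrd2*, the medians were 3.40 (2.54 to 4.85) and 3.89 (2.85 to 4.71), with 0 libraries labelled knockout outside the control range. In bulk tissue, fewer cells of a type and less RNA per cell cannot be told apart in any of these values.

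Markers of other tissues moved with the groups. Among all genes tested, 12% were called higher and 11% lower in the libraries labelled knockout. Summed over 10 genes, osteoclast markers ran from 183 to 1485 CPM in control (median 437) and from 665 to 8093 CPM in the libraries labelled knockout (median 2526), and 10 of 10 were called higher. Osteoblast and osteocyte markers had medians of 3480 CPM (1314 to 12358) and 21024 CPM (4034 to 38969), with 6 of 11 called higher, and macrophage markers 191 CPM (94.7 to 376) and 551 CPM (253 to 1024), with 8 of 9 called higher (adjusted permutation p = 0.000654 for each of the 3 lists). Skeletal muscle markers were lower, with medians of 66606 CPM (42291 to 153676) and 51924 CPM (29957 to 78290), 4 of 12 called lower and an adjusted permutation p of 0.0389 (0.0916 without control replicate 8). The muscle list passed in only 11 of 20 tests that left out 1 library, and not as a mean of log2 (CPM + 1) (adjusted permutation p = 0.0690). Chondrocyte markers had medians of 2323 CPM (111 to 3189) and 3161 CPM (1983 to 5212), with 2 of 9 tested called higher (0.0217, and 0.0842 without control replicate 8). The chondrocyte list did not pass as a mean of log2 (CPM + 1) either (adjusted permutation p = 0.201). The mast cell list was higher (0.0198, and 0.0513 without control replicate 8). The neutrophil list passed at 0.0493 but in only 5 of 20 tests that left out 1 library, with adjusted p up to 0.106. The erythroid (0.103), adipocyte (0.322), endothelial (0.482), plasma and B cell (0.582), salivary gland (0.920) and Schwann cell lists (0.920) did not pass. Of these markers, *Smgc* (salivary gland) was at 0 in every library, and *Matn1*, *Sost*, *Calcr* and *Myh7* were among those at 0 in some.

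As a covariate, each list entered as the scaled mean of log2 CPM over its tested genes, not as the sum. Fitted with the muscle list as a covariate, *Prdx4* kept its call at a log2 fold change of 0.51 (SE 0.13, adjusted p = 0.0285), and *Txn1* passed at 0.45 (SE 0.13, adjusted p = 0.0436). *Prdx3* did not pass, at -0.27 (SE 0.10, adjusted p = 0.113), nor did *Txn2* at -0.14 or *Txnrd2* at -0.15. With the osteoblast and osteocyte list instead, *Txn1* was at 0.52 (SE 0.12, adjusted p = 0.0315), *Prdx4* at 0.45 (SE 0.14, adjusted p = 0.0841) and *Prdx3* at -0.20 (SE 0.11, adjusted p = 0.325). The osteoclast list left *Prdx4* at 0.39 (adjusted p = 0.690) and *Prdx3* at -0.069 (adjusted p = 0.956), and the macrophage list left them at 0.56 (adjusted p = 0.463) and -0.26 (adjusted p = 0.655). In those last fits 0 of 15984 genes passed in edgeR, with 1299 and 1495 at an unadjusted p under 0.05. Of the variance of these covariates, 59% and 54.7% lay between the groups, compared with 24.1% for the muscle covariate, where 882 genes passed. The part of other cell types in these results was not tested beyond these fits.

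**Figure D3:**
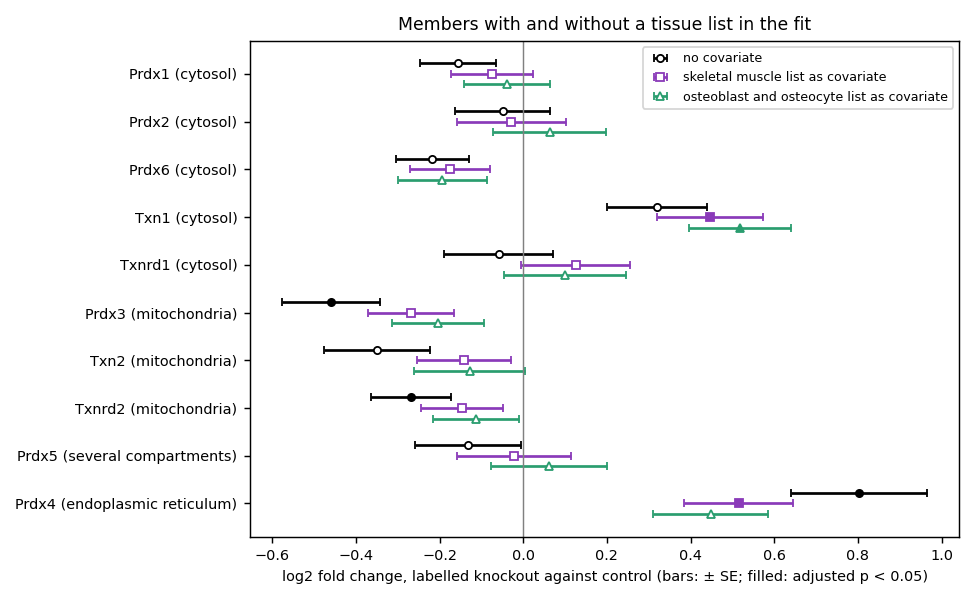
Log2 fold change of each member, libraries labelled knockout against control (horizontal axis), with bars of ± SE. Black circles show the fit without a covariate. The covariate was the scaled mean log2 CPM of the muscle list (purple squares) or of the osteoblast and osteocyte list (green triangles). Filled symbols passed an adjusted p of 0.05. *Prdx4* stays to the right of 0 in all 3 fits, at 0.80, 0.51 and 0.45, and *Prdx3* to the left, at -0.46, -0.27 and -0.20.

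**Figure D4:**
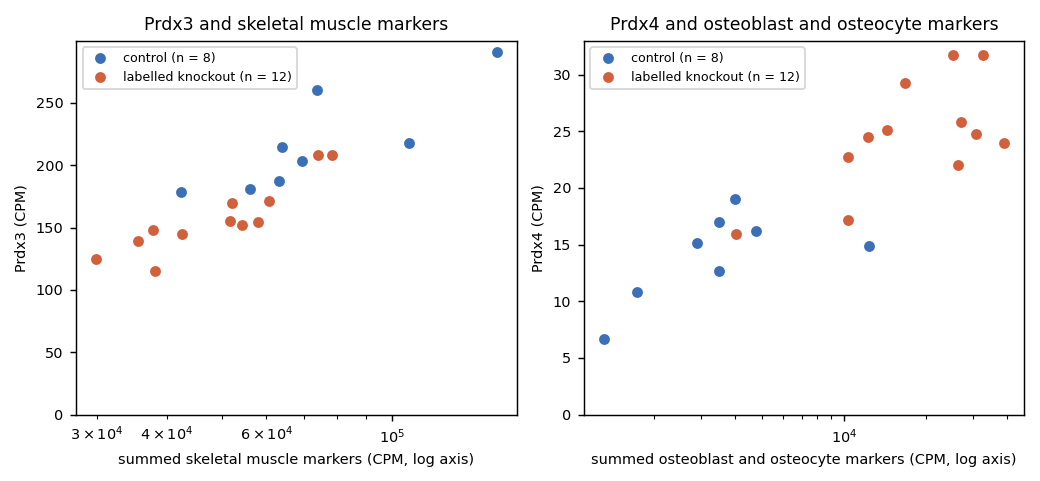
Level of *Prdx3* (left, CPM) against the summed skeletal muscle markers, and of *Prdx4* (right, CPM) against the summed osteoblast and osteocyte markers (log horizontal axes, CPM), with 1 point per library. *Prdx3* climbs with the muscle markers up to control replicate 8 at 291 CPM, and *Prdx4* climbs with the bone markers from 6.66 CPM in that same library to 31.7 CPM.

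The genes whose levels ran most closely with each member were found by Pearson correlation of log2 CPM over the 20 libraries, after centring on the group means, among 10755 protein-coding candidates. For *Prdx3* they were *Chchd3* (r = 0.96), *Sod2* (r = 0.96) and *Fh1* (r = 0.96), and for *Txn2* they were *Slc25a11* (r = 0.97), *Ndufs7* (r = 0.96) and *2310061I04Rik* (r = 0.96). *Prdx5* ran with *Atp5g1* (r = 0.96), *Ndufb10* (r = 0.96) and *Cox4i1* (r = 0.95). *Chchd3*, *Sod2*, *Fh1*, *Slc25a11*, *Ndufs7*, *Atp5g1*, *Ndufb10* and *Cox4i1* encode mitochondrial proteins. So do *Mrpl13*, which ran with *Txnrd2*, and *Cox7c* and *Ndufs8*, which ran with the cytosolic *Prdx2*. Running with such genes was therefore not particular to the mitochondrial members. *Prdx4* ran with *Gli3* (r = 0.92), a transcription factor of the hedgehog pathway, *Dse* (r = 0.91), which makes dermatan sulfate, and *Kdelr3* (r = 0.91), which returns proteins to the ER. *Prdx1* ran with the proteasome subunits *Psmd14* (r = 0.90) and *Psma1* (r = 0.88) and the chaperonin subunit *Cct8* (r = 0.87), and *Prdx2* with *Prdx5* (r = 0.89), *Cox7c* (r = 0.88) and *Ndufs8* (r = 0.85). For *Txnrd2* they were *Psma6* (r = 0.88), *Snrnp27* (r = 0.85) and *Mrpl13* (r = 0.85), for *Txn1* *Hcfc1r1* (r = 0.85), *Rexo2* (r = 0.84) and *Ly6a* (r = 0.84), for *Prdx6* *Adamtsl4* (r = 0.83), *Rrp1* (r = 0.82) and *Rps13* (r = 0.82), and for *Txnrd1* *Cux1* (r = 0.79), *Wdr70* (r = 0.79) and *Psmd11* (r = 0.79). Between members, the highest value was that of *Prdx2* with *Prdx5* (r = 0.89) and the lowest that of *Prdx3* with *Prdx4* (r = -0.79). The libraries differ in tissue make-up and were scaled together, and these values are a description.

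Thioredoxin and peroxiredoxin partners, the proteins that use, bind or repair the system, held 18 genes, of which 1 was higher, 5 were lower and 12 did not pass, with a median log2 fold change of -0.19. The 6 calls (33.3%, against 23% of all genes) became 3 without control replicate 8 or with library totals alone, 1 with the replicate block and 0 with the muscle covariate. Over all genes, the calls in these fits were 2551 of 16254, 3037 of 15984, 1786 of 15571 and 882 of 15984 in the same order. *Msrb2* and *Msra*, methionine sulfoxide reductases that draw on thioredoxin, were lower at -0.48 (SE 0.11, adjusted p = 0.00403) and -0.44 (SE 0.13, adjusted p = 0.0189). *Rrm2b*, a subunit of ribonucleotide reductase, was lower at -0.41 (SE 0.12, adjusted p = 0.0211), as were *Rrm1* at -0.30 (adjusted p = 0.0106) and the mitochondrial glutaredoxin *Glrx2* at -0.28 (adjusted p = 0.0227). Without control replicate 8, *Msra* (adjusted p = 0.0649), *Rrm2b* (0.0702) and *Glrx2* (0.0647) did not pass. *Sesn2*, a stress-induced sestrin, was the higher gene, at 7.13 ± 1.23 CPM in control and 9.61 ± 1.84 CPM in the libraries labelled knockout (log2 fold change 0.43, adjusted p = 0.0202). *Txnip*, which binds and inhibits thioredoxin, was at 429 ± 99.8 CPM and 333 ± 99.5 CPM (-0.36, SE 0.17, adjusted p = 0.128). *Srxn1*, sulfiredoxin, which repairs overoxidised peroxiredoxins, was at 65.2 ± 12.4 CPM and 72.4 ± 27.4 CPM (0.15, SE 0.18, adjusted p = 0.561).

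Of 17 genes of NADPH supply, which feeds the reductases, 16 were tested: 7 were higher and 3 lower (62.5% called, against 23% of all genes), with a median log2 fold change of 0.24. The list was chosen with earlier results of these data known. With the muscle, osteoblast and osteocyte, osteoclast or macrophage list as covariate, 4, 2, 0 and 0 of its genes passed. Of all 15984 genes, 882, 397, 0 and 0 passed in those fits. *Me2*, a mitochondrial malic enzyme that uses mainly NAD, ran from 2.91 to 8.04 CPM in control and from 8.67 to 22.3 CPM in the libraries labelled knockout, with no overlap between the groups, as in 0.3% of tested genes (log2 fold change 1.34, SE 0.23, adjusted p = 0.00128). Of the pentose phosphate pathway, *G6pdx*, its entry enzyme, was higher at 0.83 (SE 0.24, adjusted p = 0.0180) and *Tkt* at 0.81 (SE 0.22, adjusted p = 0.0127). *Me3*, a mitochondrial malic enzyme that makes NADPH, was lower, at 68.8 ± 20.1 CPM in control and 41.0 ± 11.2 CPM in the libraries labelled knockout (-0.75, SE 0.17, adjusted p = 0.00419). *Nnt*, the mitochondrial transhydrogenase, had 0 to 19 counts per library and was not tested. The 7 genes of selenoprotein synthesis, on which both reductases depend, had a median of -0.033. In edgeR 0 of 7 passed, with *Pstk* at an unadjusted p of 0.0451, and 0 passed in DESeq2 or any other alternative.

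ER oxidative folding was the list with the most calls, among lists chosen with earlier results of these data known. Of its 17 genes 12 were higher, 0 were lower and 5 did not pass (70.6% called, against 23% of all genes), with a median log2 fold change of 0.60. *Gpx7*, a peroxidase of the ER lumen that, like *Prdx4*, uses peroxide for disulfide formation, ran from 3.82 to 10.1 CPM in control and from 11.2 to 31.7 CPM in the libraries labelled knockout. The groups did not overlap, and the log2 fold change of 1.59 (SE 0.19, adjusted p = 0.000674) had the smallest p of all genes tested. *Pdia5*, a protein disulfide isomerase, did not overlap either (1.24, SE 0.19, adjusted p = 0.00104), and *Erp29* (0.93, SE 0.17, adjusted p = 0.00144) and the sulfhydryl oxidase *Qsox1* (0.85, SE 0.19, adjusted p = 0.00387) were also higher. *Ero1l*, the oxidase that makes peroxide in the ER, was at 11.5 ± 2.35 CPM and 12.9 ± 1.75 CPM (0.16, SE 0.12, adjusted p = 0.318). With the muscle, osteoblast and osteocyte, osteoclast or macrophage list as covariate, 5, 4, 0 and 0 of the 17 passed. Of all 15984 genes, 882, 397, 0 and 0 passed in those fits, so the last 2 fits cannot set this list apart.

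**Figure D5:**
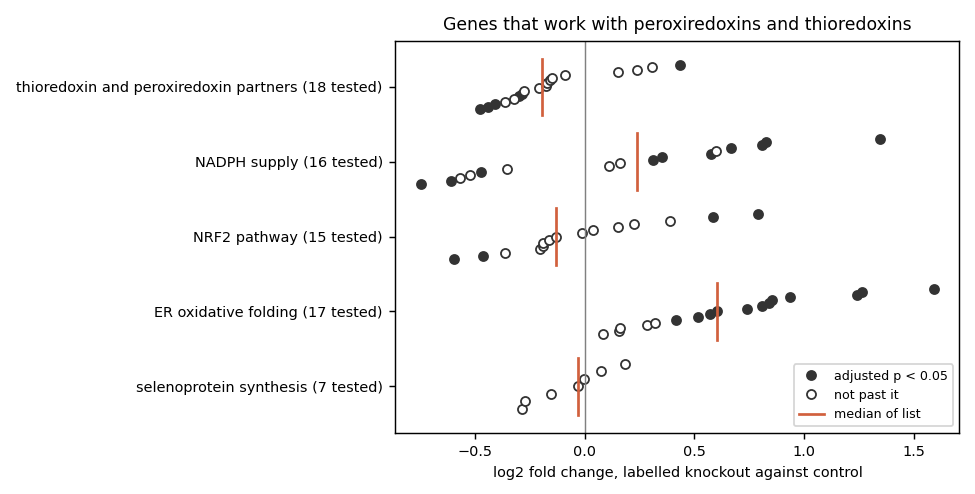
Log2 fold change, libraries labelled knockout against control (horizontal axis), of every tested gene in 5 lists of genes that work with the system, with filled points for an adjusted p under 0.05 and an orange line at the median of each list. All 17 genes of ER oxidative folding lie to the right of 0 with a median of 0.60, and 14 of the 18 partners lie to the left of 0 with a median of -0.19.

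NRF2, encoded by *Nfe2l2*, is the transcription factor that raises antioxidant genes, among them *Prdx1*, *Txnrd1* and *Srxn1*, through the antioxidant response element. Of 16 genes in its list 15 were tested: 2 were higher, 2 lower and 11 did not pass, with a median of -0.13. The 26.7% called is close to the 23% of all genes. With the same covariates 2, 1, 0 and 0 passed, where 882, 397, 0 and 0 of all 15984 genes did. *Ftl1*, the ferritin light chain (0.79, SE 0.13, adjusted p = 0.00125), and *Hmox1*, heme oxygenase (0.59, SE 0.15, adjusted p = 0.00854), were higher. *Gstm1*, a glutathione transferase (-0.60, SE 0.15, adjusted p = 0.00734), and *Nqo1*, a quinone reductase (-0.46, SE 0.15, adjusted p = 0.0265), were lower. Without control replicate 8, *Nqo1* did not pass (-0.32, adjusted p = 0.0998). *Nfe2l2* itself was at 66.6 ± 10.7 CPM and 58.3 ± 5.74 CPM (-0.19, SE 0.083, adjusted p = 0.101).

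Promoters of RefSeq (GRCm38.p6, 250 bases before to 50 after the annotated start) were given for 9 of the 10 members, *Prdx6* being the exception. The antioxidant response element was searched as TGACNNNGC on both strands and was in 12.4% of all 32851 promoter windows. Among the members it matched on the minus strand in *Prdx1*, starting at position -133 from the start site, and in the second of 3 windows of *Txnrd1*, at -92. *Srxn1* had a match at 29 bases past its start. The ER stress response element (in 0.119% of windows) and the site of nuclear respiratory factor 1 (0.971%) were in no member's window. CCAAT, which is part of the ER element, was in 37.4% of windows, among them those of *Prdx4* (-128), *Txn2* (-75) and *Txnrd1* (-163 in its second window). The 250 bases before the start are shown for the 2 members with an antioxidant response element, given in capitals, neither of which passed, and for *Prdx3* and *Prdx4*, the members with the clearest changes, which hold none. They are written from 5′ to 3′ along the gene's strand, at chr4:116685349-116685598 (plus), chr10:82858956-82859205 (plus), chr19:60874539-60874788 (minus) and chrX:155338461-155338710 (minus), and a match in letters is not evidence of binding.
Prdx1: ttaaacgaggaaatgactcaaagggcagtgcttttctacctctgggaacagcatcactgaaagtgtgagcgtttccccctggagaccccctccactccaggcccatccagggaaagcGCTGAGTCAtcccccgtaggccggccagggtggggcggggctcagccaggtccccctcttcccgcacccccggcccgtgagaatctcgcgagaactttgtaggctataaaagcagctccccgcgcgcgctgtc
Txnrd1: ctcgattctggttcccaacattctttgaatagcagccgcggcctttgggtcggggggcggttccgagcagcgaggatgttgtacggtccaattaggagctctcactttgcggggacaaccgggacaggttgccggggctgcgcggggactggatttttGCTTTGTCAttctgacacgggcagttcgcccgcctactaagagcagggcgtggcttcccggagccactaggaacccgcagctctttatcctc
Prdx3: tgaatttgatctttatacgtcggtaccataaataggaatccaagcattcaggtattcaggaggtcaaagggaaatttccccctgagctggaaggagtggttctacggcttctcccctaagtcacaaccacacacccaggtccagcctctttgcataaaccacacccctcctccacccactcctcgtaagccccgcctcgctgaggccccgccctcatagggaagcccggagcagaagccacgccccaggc
Prdx4: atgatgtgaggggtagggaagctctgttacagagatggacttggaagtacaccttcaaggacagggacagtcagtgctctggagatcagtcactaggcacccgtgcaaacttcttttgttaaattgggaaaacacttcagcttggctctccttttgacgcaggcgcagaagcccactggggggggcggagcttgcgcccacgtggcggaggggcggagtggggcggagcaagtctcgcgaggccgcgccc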

How the data were processed

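RNA-seq libraries from 8 control mice and 12 mice labelled knockout were grouped by their sample titles. The authors trimmed paired-end Illumina reads with a company script, mapped them to mm10 and assigned them to genes with featureCounts (v1.5.0-p3). Values in the deposited table are raw counts, 1 row per Ensembl identifier. The aligner, annotation release, strand setting and treatment of multi-mapped reads are not given in the sources used here, so reads shared by overlapping genes are uncertain. Of 54532 identifiers 54495 matched GENCODE M21 (GRCm38), which gave symbols, positions and the union of exons, and 37 did not.

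Genes were filtered with filterByExpr, scaled by TMM and tested with the quasi-likelihood F-test of edgeR 4.0.16 (R 4.3.3, limma 3.58.1), two-sided, with Benjamini-Hochberg adjustment over the 15984 genes tested and a threshold of 0.05. CPM use TMM-scaled library sizes, and log2 CPM a prior count of 2. For library totals and summed marker lists, all 125970 assignments of libraries to groups were enumerated in an exact permutation test (two-sided), with adjustment over 13 lists. Alternatives were other scalings, filters, the DESeq2 1.42.0 Wald test, which the study used, protein-coding genes alone, a replicate block, marker list covariates and leaving out each library. The covariates of the osteoblast and osteocyte, macrophage and chondrocyte lists were added after seeing the data.

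The members and lists were chosen with earlier results of these data known. Named genes were the members, *Loxl2*, 6 pathway genes (*Txnip*, *Srxn1*, *Nfe2l2*, *Ero1l*, *Gpx7*, *Nnt*), in each list up to 4 called genes of a mean over 5 CPM with the largest change, the 3 genes most like each member, and overlapping genes and pseudogenes, of which some are not reported here. *Rrm1*, *Glrx2*, *Pstk*, *Col2a1*, *Acan*, *Prg4* and *Smgc* with the other markers at 0 were named after their values were seen. The test was checked on simulated data. With 200 genes changed by a log2 fold change of 1.5 in size, 84% were recovered and 4.55% of the calls were false. Changes as small as those of the members, and shifts in tissue make-up, were not simulated. The limit that a count of 0 allows (3 counts) lay between 0.0964 and 0.246 CPM over the libraries and covers counting error only. Counts of all 190 pairs of libraries differed by more than sampling noise (smallest chi-square 32.9 per degree of freedom). p-values measure the spread between these libraries.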

Additional observations from a re-analysis of the deposited data

Results flagged for a closer look

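Of 47 group values examined in the control libraries, 7 had 1 library farther from the others than the 95% critical value for 8 samples allows, where chance gives about 1 in 20. *Prdx2* was at 278 CPM in control replicate 6 with the next library at 196 CPM. Control replicate 8 held the highest *Nfe2l2*, at 91.3 CPM against 70.9 CPM in the next library, and the highest *Nqo1*, at 43.6 CPM against 30.3 CPM. Its chondrocyte and muscle marker sums were not past this critical value. Control replicate 5 stood apart in 3 marker lists: osteoblast and osteocyte markers at 12358 CPM (next 4769), osteoclast markers at 1485 CPM (next 575) and plasma cell and B cell markers at 44.9 CPM (next 11.3). Mast cell markers were at 19.7 CPM in control replicate 1 (next 9.26). Without control replicate 5, the log2 difference of the osteoclast list was 2.76 and that of the osteoblast and osteocyte list 2.63.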

How the results depend on the processing

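*Prdx4* kept its direction in all 17 alternatives and its call in 14, and *Prdx3* kept its direction in 17 and its call in 12. The numbers of the replicates did not pair the libraries: of 8 same-numbered pairs, correlations of their deviations from the group means ran from -0.36 to 0.17, 2 were over 0.1 and 0 libraries correlated best with their own number. With the replicate block on the 16 libraries with shared numbers, 1786 genes and 1 member were called, *Prdx3* was at -0.51 (adjusted p = 0.0544), *Txnrd2* at -0.25, *Txnrd1* at 0.071 and the partner list had 1 call. Without the block, the same 16 libraries gave *Txnrd2* -0.24 and *Txnrd1* 0.060. With the muscle covariate, 882 genes were called, with *Txn1* at 0.45, *Txnrd1* at 0.13, *Prdx3* at -0.27 and *Txnrd2* at -0.15, and 0 partner, 4 NADPH, 2 NRF2 and 5 ER folding genes called. With the osteoclast covariate, 0 genes and 0 members passed, with *Prdx1* at 0.087, *Prdx2* at 0.10, *Txnrd1* at 0.17, *Prdx3* at -0.069, *Txn2* at 0.015, *Txnrd2* at -0.020, *Prdx5* at 0.18 and *Prdx4* at 0.39, and 0 genes of each of the partner, NADPH, NRF2 and ER lists. With the macrophage covariate, again 0 genes, 0 members and 0 genes of these lists passed, with *Txnrd1* at 0.0098, *Prdx3* at -0.26, *Txnrd2* at -0.22 and *Prdx4* at 0.56. With the osteoblast and osteocyte covariate, 397 genes and 1 member passed, with *Prdx2* at 0.063, *Txn1* at 0.52, *Txnrd1* at 0.10, *Prdx3* at -0.20, *Txnrd2* at -0.11, *Prdx5* at 0.061 and *Prdx4* at 0.45, and 0 partner, 2 NADPH, 1 NRF2 and 4 ER genes. With the chondrocyte covariate, 2191 genes passed, with *Prdx2* at 0.014, *Txn1* at 0.40, *Txnrd1* at 0.018, *Txnrd2* at -0.19 and 2 partner genes. Library totals alone gave *Prdx2* 0.093, *Txn1* 0.47, *Txnrd1* 0.11, *Txnrd2* -0.12, *Prdx5* 0.0086 and 3 partner genes. *Prdx2* was at 0.015 and *Txnrd2* at -0.29 with the erythroid covariate, and *Txnrd2* at -0.27 with the plasma and B cell covariate and -0.26 without a filter. *Txn2* passed with DESeq2 size factors (-0.36), upper-quartile factors (-0.37), the DESeq2 Wald test (-0.36), a filter at a mean of 1 CPM (-0.35) and protein-coding genes alone (-0.37). Beyond the covariates' own construction, the cause of these changes was not tested.

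Leaving out each library in turn gave 2 to 5 members called (5 without the library labelled knockout replicate 12), and 3 to 7 partner genes (3 without control replicate 8). The log2 fold change ran from -0.093 to 0.063 for *Prdx2*, -0.26 to -0.17 for *Prdx6*, 0.24 to 0.37 for *Txn1*, -0.12 to 0.024 for *Txnrd1*, -0.40 to -0.28 for *Txn2* and -0.31 to -0.21 for *Txnrd2*. The log2 difference of marker lists ran from 0.46 to 1.15 for chondrocyte, -0.69 to -0.42 for muscle, 1.86 to 2.57 for neutrophil, 1.82 to 2.30 for mast cell, -0.67 to -0.066 for salivary gland and -0.20 to 0.52 for Schwann cell. As a mean of log2 (CPM + 1) instead of a sum, the lists gave chondrocyte 0.61, muscle -0.61, neutrophil 1.38, plasma and B cell -0.020, salivary gland 0.30 and Schwann cell -0.049. On that scale the chondrocyte (adjusted permutation p = 0.201), muscle (0.0690) and neutrophil lists (0.0907) lost their calls. Depth did not limit the members, which had at least 87 counts in every library, and the spread between libraries set the intervals.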
